A study of Mus musculus with 40 samples.

Results

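The mouse mammary gland was read for 10 genes of the fat droplet: the droplet coat genes Plin1, Plin2, Plin4 and Plin5, the droplet fusion gene Cidec, the lipases Pnpla2, Lipe and Mgll, and the lipase regulators G0s2 and Abhd5. They were chosen by gene symbol, as the perilipins, Cidec, the lipases and their regulators, and are 10 of the 47729 genes listed in the count and RPKM tables. All 10 passed the filter on low counts in each table. The gland was studied in Balb/cJ mice whose ovaries had been removed at 21 d of age and who had recovered for 7 d. Every group therefore lacked ovaries, and the controls ate an AIN 93G based diet. In the estrogen groups the same diet was given with 200 nM estrogen in the drinking water, and in the CLA groups the diet carried 2.7% fat as conjugated linoleic acid, a family of isomers of linoleic acid. Control and estrogen mice were taken at 60 h and 84 h, and separate control and CLA mice at 108 h and 132 h, which gave 8 groups of 5 libraries, named below by their order of deposit within a group. Poly-A RNA was read from part of one #4 inguinal gland per mouse after the lymph node had been cut out. Whole gland holds fat cells, epithelium, vessels, fibroblasts and immune cells together, so each value is a mix.

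A fat cell keeps triglyceride in a droplet wrapped by a single layer of phospholipid and a coat of proteins. In the resting fat cell Plin1 covers the droplet and holds Abhd5, the activator of the triglyceride lipase Pnpla2 (ATGL). When protein kinase A phosphorylates Plin1, Abhd5 is freed, and Pnpla2, Lipe (hormone-sensitive lipase) and Mgll (monoglyceride lipase) then remove the fatty acids one after another. Plin1, Plin4 and Cidec are genes of mature fat cells, Plin5 is known from tissues that burn much fat, and Plin2 is made by almost any cell that stores lipid, macrophages and mammary epithelium included. The promoters of several of these genes are textbook targets of PPAR gamma and C/EBP alpha.

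Plin1 and Plin2 changed in opposite directions in the same libraries, and the sequences just upstream of their start sites are therefore printed. Plin1 lies on chromosome 7 from 79720218 to 79732903 and Plin2 on chromosome 4 from 86648386 to 86670060, both on the minus strand (GRCm38, GENCODE M21). Each sequence is the part of RefSeq's 250 bases before the start (GRCm38.p6) that lies outside the gene as GENCODE draws it. That part is 123 bases for Plin1 (chr7:79732904-79733026) and 249 bases for Plin2 (chr4:86670061-86670309), and both are written 5′ to 3′ on the minus strand. Capitals mark a match to TTGCNNAA, a core form of the C/EBP site, in Plin1, and to AGGTCA, the core of nuclear receptor sites, read on the other strand in Plin2.
Plin1: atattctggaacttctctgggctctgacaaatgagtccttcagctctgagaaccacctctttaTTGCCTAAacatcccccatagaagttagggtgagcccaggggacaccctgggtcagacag
Plin2: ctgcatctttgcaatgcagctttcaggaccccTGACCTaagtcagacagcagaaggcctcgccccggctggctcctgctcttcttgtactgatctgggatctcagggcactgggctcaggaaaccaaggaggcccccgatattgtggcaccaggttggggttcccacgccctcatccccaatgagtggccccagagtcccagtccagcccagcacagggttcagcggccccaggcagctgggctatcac
All 10 genes had RefSeq promoters, in 14 windows. Over the full 250 bases and on both strands, TTGCNNAA was found in the windows of Plin1 and Cidec, and in 9.56% of 32851 mouse windows of the same length. AGGTCA was found in those of Plin2, Plin5 and Abhd5, and in 14.0% of all windows. The direct repeat of AGGTCA with 1 base between, known as DR1, was in none of the 10 genes' windows and in 0.0335% of all windows. Only exact matches in these 250 bases were sought. A motif this rare is likely to be absent from any 14 windows, so its absence does not set these genes apart. A match describes letters in a window and is not a binding site.

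Library totals ran from 18183713 to 40026800 counts. Levels below are counts per 1000000 counts (CPM) after edgeR's TMM scaling over all 40 libraries, as mean ± SD of 5 libraries. High levels of skin and hair genes were seen in 9 libraries: control libraries 1 and 2 at 108 h, control libraries 1 to 3 at 132 h, estrogen library 5 at 60 h and estrogen libraries 2, 3 and 5 at 84 h. No CLA library was among them, and the summed level of 15 skin and hair genes reached 2830 CPM in controls but 29.6 CPM at most with CLA. The counts of the 10 genes were therefore also made without these 9 libraries. The summed level of 10 skeletal muscle genes reached 1600 CPM in controls at 84 h and 972 CPM at 132 h. It was at most 120 CPM with estrogen and 49.1 CPM with CLA at the same times. At 108 h it reached 152 CPM in controls and 5.42 CPM with CLA, and at 60 h 28.6 CPM in controls and 102 CPM with estrogen. With CLA 7 of 9 muscle genes tested were called lower at 108 h and 1 of 10 at 132 h, where 23.0% and 29.0% of all genes were. With estrogen none was called. Mitochondrial genes took 4.76% to 6.73% of counts with CLA against 7.25% to 8.64% at 108 h and 4.13% to 7.91% against 7.75% to 9.67% at 132 h. With estrogen the mean share was 7.68% against 9.76% at 60 h and 7.70% against 8.46% at 84 h. The part of muscle RNA or of the mitochondrial share in the results below was not tested. The animal numbers in the labels fall into 4 runs, and all 10 estrogen mice, with no other mouse, make up 1 of them, so that run and estrogen cannot be told apart.

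Per length of gene, Pnpla2 was the most abundant of the 10 in the 20 control libraries, with 722 ± 67.8 RPKM (SD, n = 20), the 37th highest value of all genes listed. Cidec followed with 525 ± 71.9 RPKM, Plin1 with 337 ± 24.1 RPKM, Plin4 with 303 ± 43.0 RPKM and Mgll with 264 ± 19.0 RPKM. Lipe had 217.5 ± 24.9 RPKM, G0s2 197 ± 40.4 RPKM and Plin2 109 ± 26.8 RPKM. Abhd5 and Plin5 were lowest, with 35.8 ± 4.27 and 29.1 ± 5.91 RPKM. In this order the control ranges of neighbours overlapped, except between Cidec (401.7 RPKM or more) and Plin1 (384.8 RPKM or less) and between Plin2 (72.0 RPKM or more) and Abhd5 (46.6 RPKM or less). The RPKM values come from tables made separately for the early and the late times. The length that the 2 deposited scales imply departed from the annotation for 3 genes. Counts and RPKM together imply a length of 129% to 145% of the annotated exons for 7 genes, but of 7.93% for G0s2, 24.2% for Lipe and 69.0% for Abhd5. These 3 overlap Lamb3, 4732471J01Rik and A730085K08Rik on the opposite strand, and so do Plin4 and Mgll with other genes. The library kit keeps the strand, but whether the counting used it is not given in the sources used here, and the part of the overlaps was not tested. Over the 40 libraries the 2 scales had a Pearson's r of 0.96 or more on the log2 scale for 9 genes and of 0.845 for Abhd5.

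Plin1 fell with CLA at both times. At 108 h the 5 CLA libraries held 1318, 1285, 1476, 1045 and 1347 CPM, and the 5 controls 2323, 1828, 2247, 2373 and 2193 CPM. At 132 h the CLA libraries held 1502, 952.6, 999.5, 1221 and 1266 CPM, and the controls 2039, 2211, 2435, 2832 and 2538 CPM. No CLA library reached the lowest control of its time. The change was -0.76 ± 0.09 on the log2 scale at 108 h (SE, adjusted p = 1.93e-06, edgeR's quasi-likelihood test with Benjamini-Hochberg adjustment over all genes tested) and -1.03 ± 0.12 at 132 h (adjusted p = 3.77e-07), a level 41.0% and 51.1% lower. Over the 8 groups, mean Plin1 ran from 2457 CPM in controls at 84 h down to 2159 CPM with estrogen at 84 h without a gap between neighbouring groups' ranges. It then dropped to 1294 CPM with CLA at 108 h and 1188 CPM with CLA at 132 h, whose ranges overlapped each other.

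Plin2 rose with CLA at both times. At 108 h the CLA libraries held 1388, 1437, 1524, 1678 and 1147 CPM, against 358.5, 399.0, 466.5, 420.5 and 453.2 CPM in controls. At 132 h the CLA libraries held 1257, 1836, 1596, 1208 and 1913 CPM, against 410.2, 320.1, 580.7, 513.6 and 564.1 CPM in controls. The lowest CLA library was at 1147 CPM and the highest of all other 30 libraries at 950.2 CPM, a control at 84 h that stood above the other 4 of its group (465.8 to 631.5 CPM). The rise was 1.77 ± 0.15 on the log2 scale at 108 h (3.42-fold, edgeR adjusted p = 1.95e-08) and 1.70 ± 0.20 at 132 h (3.24-fold, edgeR adjusted p = 7.07e-07). In RPKM, Plin2 went from 92.9 ± 9.45 to 339 ± 42.3 at 108 h, while Plin1 went from 329 ± 29.9 to 205 ± 25.4, so that Plin2 stood above Plin1 with CLA.

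**Figure D1:**
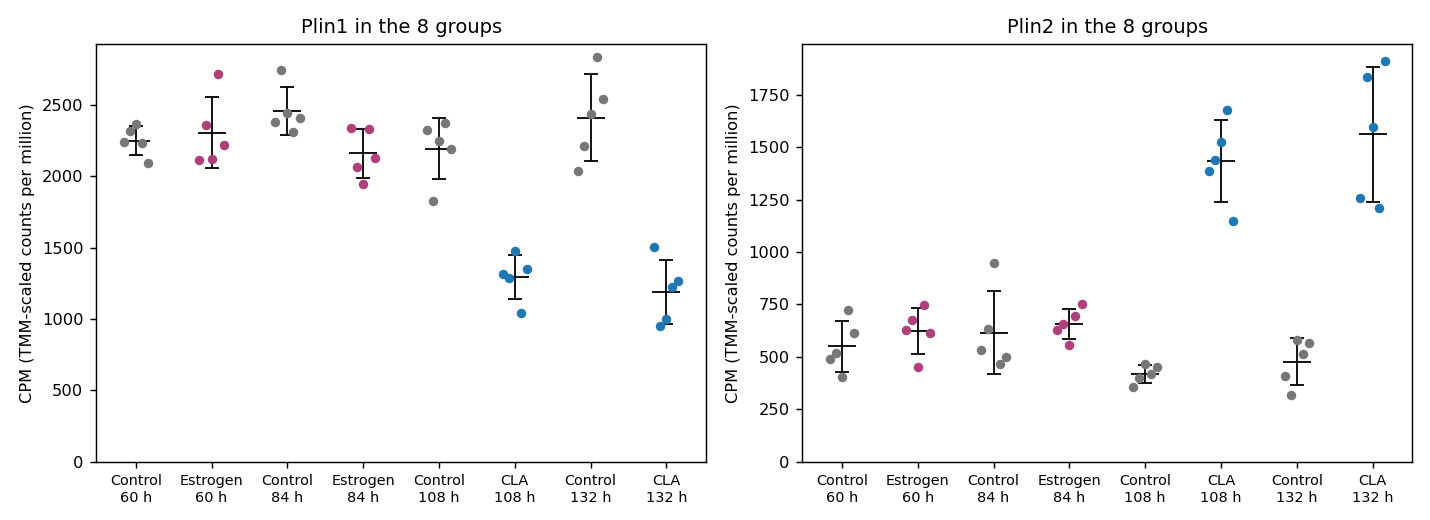
Level of Plin1 (left) and Plin2 (right) in each library, in TMM-scaled CPM, by treatment and time; grey points are controls, purple points estrogen and blue points CLA, and bars give the mean ± SD of 5 libraries. The 10 CLA libraries lie at 1502 CPM or below for Plin1 and at 1147 CPM or above for Plin2, apart from the other 30 libraries in both panels.

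Markers of other cells changed in the same libraries. Of 12 fat cell markers 11 fell with CLA at each time, Sncg being the exception. Their summed level was 2500 to 4680 CPM with CLA against 7730 to 9860 CPM in controls at 108 h, and 2020 to 3880 against 8350 to 11400 CPM at 132 h. Adipoq, the hormone adiponectin of mature fat cells, fell by 1.11 ± 0.10 and 1.44 ± 0.13 on the log2 scale (edgeR adjusted p = 3.03e-08 and 2.38e-08). Of 14 macrophage markers tested 12 rose at each time. Their summed level was 3130 to 4700 CPM with CLA against 975 to 1850 CPM in controls at 108 h and 3240 to 6730 against 687 to 1200 CPM at 132 h, with none at 0 in any group. Adgre1, the gene of the macrophage antigen F4/80, had 208 ± 63.9 CPM with CLA against 48.0 ± 18.2 CPM at 108 h, and 235 ± 80.6 against 26.9 ± 9.31 CPM at 132 h (edgeR adjusted p = 5.74e-05 and 4.84e-08). Endothelial markers fell as well, 7 and 6 of 7, and of 8 fibroblast markers 2 and 5 rose and 1 fell at each time. Of 7 basal epithelial markers 4 and 5 fell, and of 10 luminal ones 0 and 1 rose and none fell. The summed basal level was 170 to 366 CPM with CLA against 338 to 873 CPM in controls at 108 h. At 132 h it was 162 to 307 against 303 to 1270 CPM. Libraries rich in skin genes were among these controls but not among the CLA libraries. The part of skin RNA in this basal fall was not tested. Of all genes tested, 23.0% and 29.0% were called lower and 24.9% and 27.0% higher at the 2 times. In whole tissue, fewer cells of a type and less RNA per cell cannot be told apart. The part of any cell type in the fall of Plin1 or the rise of Plin2 was not tested.

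Of the other coat genes, Plin4 and Plin5 are neighbours on chromosome 17, from 56100591 to 56109803 and from 56111601 to 56117596, and Cidec lies on chromosome 6 from 113424634 to 113435760, all 3 on the minus strand. Plin4 fell at both times. Its CLA libraries held 991.4 to 1431 CPM at 108 h (median 1303) against 2031 to 2833 CPM in controls, and 728.0 to 1168 CPM at 132 h (median 1072) against 2127 to 3629 CPM, with no overlap at either time. The change was -0.91 ± 0.11 at 108 h and -1.41 ± 0.15 at 132 h on the log2 scale (edgeR adjusted p = 2.34e-06 and 2.52e-07), or 46.8% and 62.5% lower. Cidec, whose protein gathers at droplet contacts and lets small droplets pass their lipid into larger ones, fell by 0.47 ± 0.10 and 0.62 ± 0.15 (edgeR adjusted p = 0.000571 and 0.00132). Its groups were apart at 108 h, from 781.6 to 1102 CPM against 1158 to 1529 CPM, and overlapped at 132 h, where CLA library 1 with 1219 CPM lay above 2 controls with 1130 and 1164 CPM. Plin5, which couples droplets to mitochondria, did not pass the test. It had 51.1 to 94.1 CPM with CLA and 56.8 to 91.5 CPM in controls at 108 h. At 132 h it had 57.9 to 106.8 CPM with CLA and 71.3 to 135.4 CPM in controls. There CLA libraries 2, 3 and 4 lay below all controls, with 64.4, 57.9 and 70.3 CPM. The Plin5 estimates were 0.01 ± 0.20 and -0.29 ± 0.215 (edgeR adjusted p = 0.973 and 0.261). Without the libraries rich in skin genes, which leaves 2 controls at 132 h, the Plin5 estimate at 132 h became -0.60 with an edgeR adjusted p of 0.0483, the lowest of its 20 alternatives (up to 0.680).

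The 3 lipases fell together. Pnpla2, which takes the first fatty acid off triglyceride, had 1310 to 1613 CPM with CLA against 2201 to 2763 CPM at 108 h, and 1111 to 1687 against 2494 to 3636 CPM at 132 h. Its change was -0.785 ± 0.08 and -1.18 ± 0.12 on the log2 scale (edgeR adjusted p = 2.05e-07 and 1.04e-07). Lipe, whose enzyme acts next on diglyceride, had 144.8 to 176.6 CPM against 227.8 to 289.2 CPM at 108 h and 115.7 to 204.6 against 277.7 to 403.2 CPM at 132 h. It fell by 0.72 ± 0.09 and 1.15 ± 0.14 (edgeR adjusted p = 2.1e-06 and 7.49e-07). Mgll, whose enzyme splits monoglyceride into glycerol and the last fatty acid, had 1184 to 1503 CPM against 1677 to 1929 CPM and 1042 to 1558 against 1668 to 2491 CPM, and fell by 0.51 ± 0.07 and 0.69 ± 0.11 (edgeR adjusted p = 7.53e-06 and 4.16e-05). In all 3 genes every CLA library was below every control of its time. Pnpla2 lies on chromosome 7 from 141455198 to 141460743, Lipe on chromosome 7 from 25379527 to 25398710 and Mgll on chromosome 6 from 88724412 to 88828360 (GRCm38, GENCODE M21).

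Both regulators of Pnpla2 fell. G0s2, its inhibitor, is a short gene (chromosome 1, 193272161 to 193273217) with few counts in these tables. Its CLA libraries had 5.795 to 11.05 CPM against 11.67 to 15.37 CPM in controls at 108 h and 5.86 to 11.54 against 11.02 to 15.52 CPM at 132 h, where CLA library 1 overlapped the controls. The change was -0.51 ± 0.13 and -0.69 ± 0.22 on the log2 scale (edgeR adjusted p = 0.00329 and 0.0129). Without the 9 libraries rich in skin genes the call at 132 h was lost, with -0.68 and an edgeR adjusted p of 0.110 (range over 20 alternatives 0.00491 to 0.110). Abhd5, the activator of Pnpla2 (chromosome 9, 122351608 to 122381524), fell by 0.27 ± 0.10 at 108 h and 0.36 ± 0.075 at 132 h (edgeR adjusted p = 0.0289 and 0.000405). At 108 h its groups overlapped, with 112.8 to 144.4 CPM against 134.7 to 192.8 CPM, and at 132 h they did not, with 101.5 to 127.1 CPM against 133.0 to 156.6 CPM. The fall of Abhd5 depended on the scale used. On log2(RPKM + 0.1), limma gave -0.13 and -0.11 with adjusted p of 0.291 and 0.239, where the 20 alternatives at each time spanned 0.00703 to 0.292 and 8.17e-06 to 0.240. At 108 h the call was also lost without control library 4 (-0.19), CLA library 4 (-0.215) or CLA library 5 (-0.26).

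**Figure D2:**
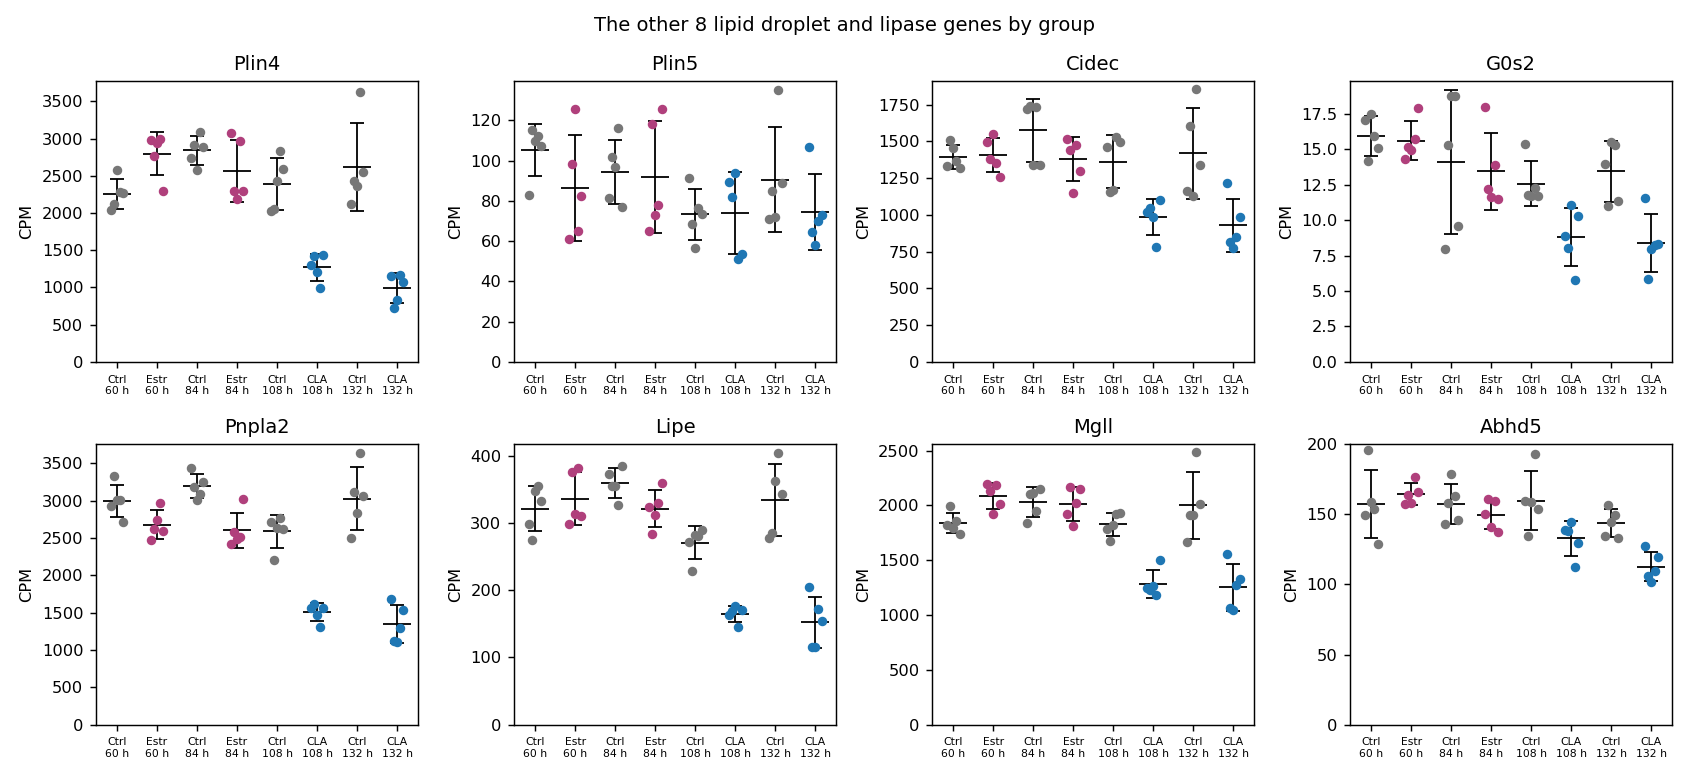
Levels of the other 8 genes in each library, in TMM-scaled CPM, drawn as in the plot of Plin1 and Plin2, each panel on its own axis from 0. With CLA the points of Plin4, Pnpla2, Lipe and Mgll lie below all controls of the same time. Those of Plin5 overlap the controls at both times, and some lie below all of them.

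With CLA, 8 of the 10 genes fell at 108 h and the same 8 fell at 132 h, Plin2 rose and Plin5 did not pass the test. Of all genes tested, 47.9% were called at 108 h (23.0% lower, 24.9% higher) and 56.0% at 132 h (29.0% lower, 27.0% higher). With limma on log2(RPKM + 0.1), 65.1% of called genes were higher at 108 h and 67.9% at 132 h, against 52.0% and 48.2% in edgeR. The median log2 change of the 10 genes was -0.51 at 108 h and -0.69 at 132 h, beside -0.01 and -0.03 over all genes. Without the libraries rich in skin genes, 8 fell and 1 rose at each time, with Plin5 in place of G0s2 at 132 h. Within runs of animal numbers, of 1 to 3 libraries a group, each of the 9 called genes kept the sign of its change. At 108 h the values were -0.60 and -0.94 for Plin1 and 1.94 and 1.64 for Plin2, but -0.06 and -0.47 for Abhd5. At 132 h the 3 runs gave Plin1 -0.91, -1.105 and -1.003 and Plin2 2.09, 1.15 and 1.76.

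**Figure D3:**
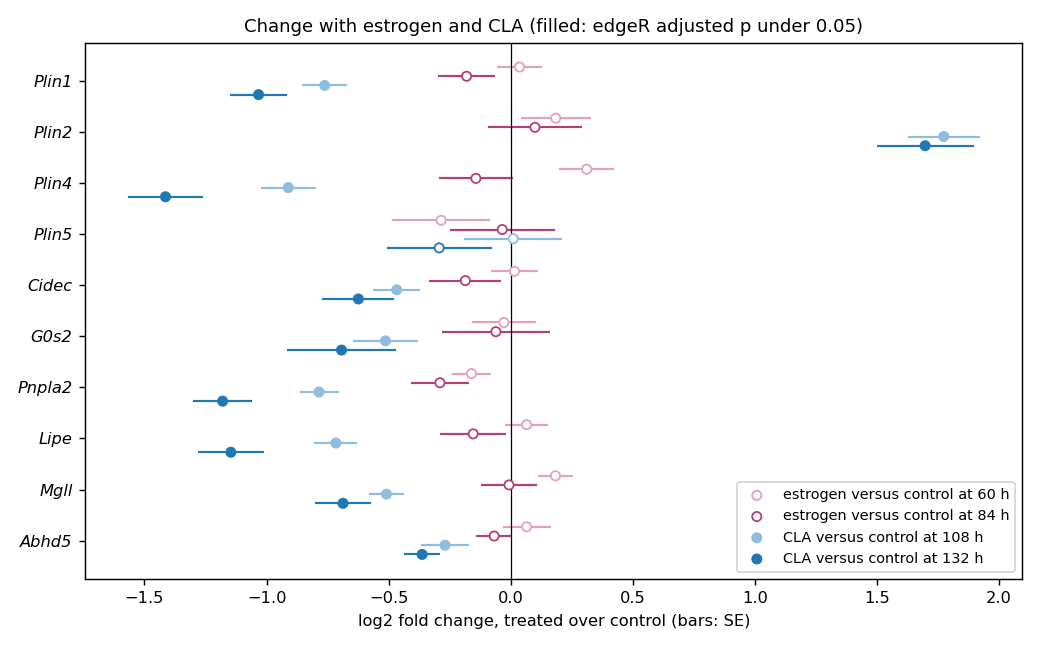
Log2 fold change of each gene, treated over control, with its standard error as a bar, for estrogen at 60 h and 84 h (purple) and CLA at 108 h and 132 h (blue). Filled points passed the edgeR threshold of an adjusted p of 0.05: Plin2 on the right, 8 genes on the left, all of them with CLA.

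The count ratio of Plin1 to Plin2 within a library, which does not depend on scaling, fell from well above 1 to near or below 1 with CLA. Counts are not divided by gene length. At 108 h the log2 ratio in RPKM was 1.62 to 2.145 in controls and -1.24 to -0.36 with CLA. At 132 h it was 1.49 to 2.24 in controls and -1.52 to -0.32 with CLA. As log2 of the count ratio, the 5 controls at 108 h had 2.70, 2.195, 2.27, 2.50 and 2.27, and the 5 CLA libraries -0.075, -0.16, -0.05, -0.68 and 0.23. At 132 h the controls had 2.31, 2.79, 2.07, 2.46 and 2.17, and the CLA libraries 0.26, -0.95, -0.675, 0.02 and -0.595. The groups were far apart at each time, by -2.53 at 108 h (a 5.79-fold lower ratio) and -2.75 at 132 h (6.72-fold lower). The 2-sided exact permutation p was 0.0079 at each time, the smallest that 5 against 5 libraries allow, and 0.0159 after adjustment over the 4 comparisons. The difference was -2.54 and -2.57 within the 2 runs at 108 h, and -3.01, -2.25 and -2.77 within the 3 runs at 132 h. Without the 9 libraries rich in skin genes it was -2.49 and -2.705. There the exact test, with 3 or 2 controls left, can give no p below 0.036 and 0.095. With estrogen the mean log2 ratio was 1.90 ± 0.19 against 2.06 ± 0.365 in controls at 60 h and 1.72 ± 0.15 against 2.045 ± 0.39 at 84 h (SD, n = 5), with adjusted exact permutation p of 0.397 and 0.180. The 84 h comparison rested on control library 3, whose ratio was 1.36. Without it the difference went from -0.325 to -0.495 and its adjusted exact permutation p to 0.0212, the lowest of 13 alternatives (up to 0.571).

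**Figure D4:**
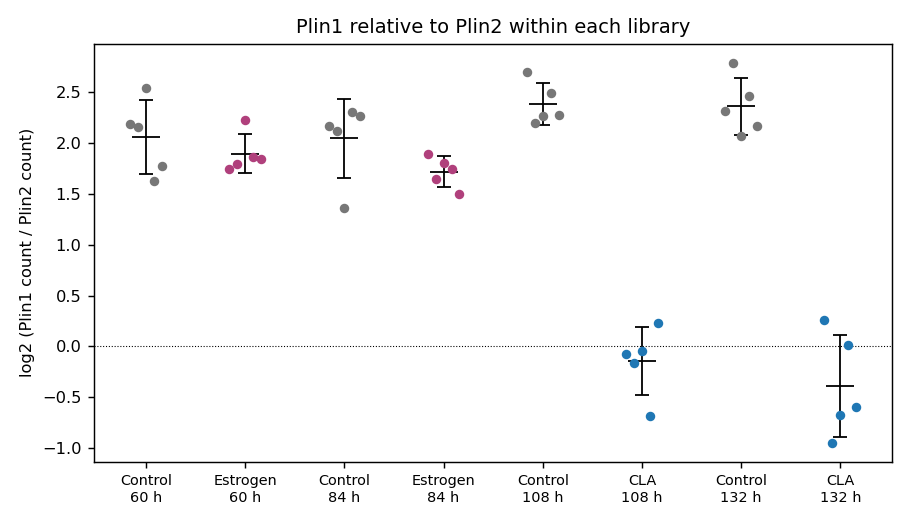
Log2 of the Plin1 count over the Plin2 count in each library, by group, with the mean ± SD of 5 libraries; the dotted line marks equal counts. The 10 CLA libraries lie between -0.95 and 0.26, and all 30 others between 1.36 and 2.79.

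At 108 h Plin1 and the 3 lipases fell less than the mean of the fat cell markers, a difference that did not pass the test when the markers' median was the reference. The mean log2 CPM of the 12 markers went from 8.57 ± 0.135 to 7.38 ± 0.285 at 108 h and from 8.65 ± 0.15 to 7.275 ± 0.28 at 132 h (SD, n = 5). Since this reference fell with CLA, a gene with no change of its own stands higher against it. Of all genes tested, 86.0% were higher relative to the markers at 108 h and 85.2% at 132 h (2-sided exact permutation test, adjusted over all genes), with a median of 1.175 and 1.37 on the log2 scale. Of the 10 genes, 9 were higher at 108 h and 8 at 132 h by that rule, near the share of all genes, and 9 and 7 when adjusted over the 40 tests of the 10 genes. Their median was 0.66 and 0.69, and Plin2 alone lay above the median of all genes.

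Plin2 stood 2.96 and 3.10 higher relative to the markers on the log2 scale, Plin5 1.17 and 1.105, Abhd5 0.92 and 1.03 and Cidec 0.72 and 0.77. Mgll differed by 0.68 and 0.70, G0s2 by 0.65 and 0.68 and Plin1 by 0.42 and 0.35. These 7 genes each had an adjusted exact permutation p of 0.0212 over the 40 tests at both times. All of them but Plin2 lay below the median of all genes given above. Pnpla2 (0.41 and 0.20) and Lipe (0.475 and 0.22) passed at 108 h but not at 132 h, where their adjusted exact permutation p was 0.127 and 0.0705. Plin4 passed at neither time (0.28 and -0.02, adjusted exact permutation p = 0.127 and 0.844). With the median of the 12 markers in place of their mean, 4 genes passed at 108 h and 3 at 132 h. Plin1 was then lost at both times (0.335 and 0.145, adjusted exact permutation p = 0.181 and 0.404), and so were Mgll (0.59 and 0.50, adjusted exact permutation p = 0.106 and 0.0866) and Cidec (0.63 and 0.57, adjusted exact permutation p = 0.0866 at each time). Plin5 was lost at 132 h (0.90, adjusted exact permutation p = 0.0794), and Pnpla2 and Lipe at 108 h (0.32 and 0.39, adjusted exact permutation p = 0.265 and 0.243). Against Adipoq alone, all but Plin4 passed at both times (Plin4 0.21 and 0.04, adjusted exact permutation p = 0.0907 and 0.660). Pnpla2 and Lipe passed there at 132 h too, with 0.27 and 0.29 (adjusted exact permutation p = 0.0176 and 0.0334). Without the libraries rich in skin genes too few controls were left for any gene to pass.

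**Figure D5:**
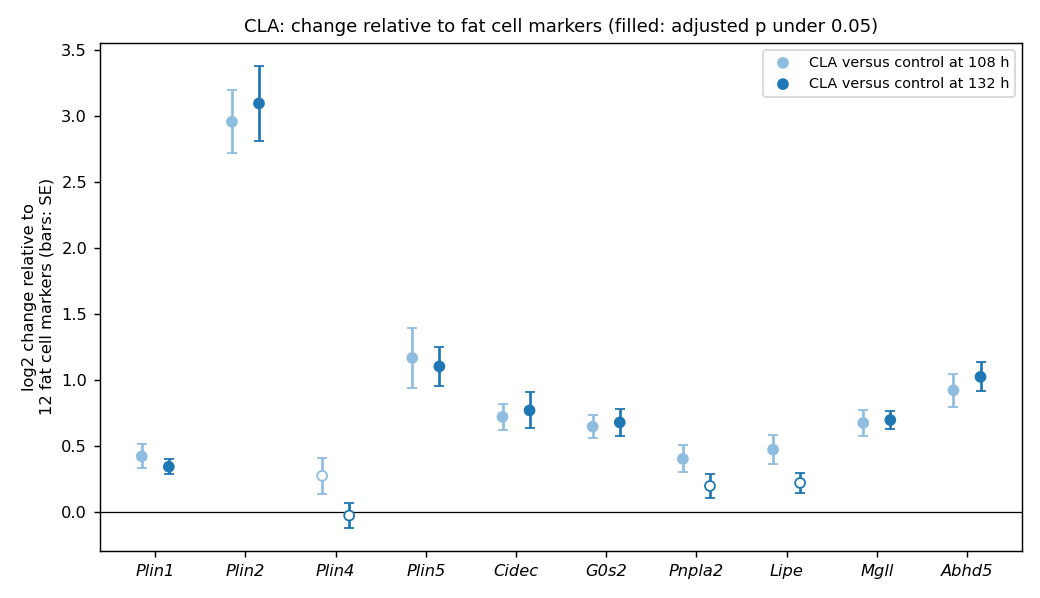
Change with CLA of each gene relative to the mean of 12 fat cell markers of the same library, on the log2 scale, at 108 h (light blue) and 132 h (dark blue); bars are standard errors of the difference of the 2 group means, and filled points passed the exact permutation test after adjustment. Plin2 stands apart at 2.96 and 3.10, Plin4 lies nearest to 0 at both times, and the median of all genes, which is not drawn, is 1.175 and 1.37.

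Estrogen moved none of the 10 genes past the threshold, at 60 h or 84 h. Estrogen called 6.49% of all genes at 60 h and 5.42% at 84 h. At an unadjusted p under 0.05, edgeR gave 2 of the 10 at 60 h (Plin4 and Mgll) and 1 at 84 h (Pnpla2). Of all genes, 3968 of 17248 had such a p at 60 h and 3684 of 17180 at 84 h, so these counts do not set the 10 apart. DESeq2 and limma called 0 of the 10 at both times. Plin4 had 2985, 2765, 2938, 2999 and 2302 CPM with estrogen at 60 h and 2041, 2123, 2576, 2283 and 2265 CPM in controls, a difference of 0.31 ± 0.11 on the log2 scale (edgeR adjusted p = 0.10). Library 5, the lowest of the estrogen group, was the one rich in skin genes, and without such libraries Plin4 was called, with 0.37 and an edgeR adjusted p of 0.0478, the lowest of 19 alternatives (up to 0.196). Mgll differed by 0.18 ± 0.07 at 60 h (edgeR adjusted p = 0.121) and Pnpla2 by -0.29 ± 0.12 at 84 h (edgeR adjusted p = 0.157), where 4 of 5 estrogen libraries, at 2419 to 2584 CPM, lay below all controls, at 3010 to 3433 CPM. Plin1 had 2304 ± 249 CPM with estrogen against 2249 ± 103 CPM at 60 h and 2159 ± 171 against 2457 ± 169 CPM at 84 h. Plin2 had 624 ± 110 against 550 ± 121 CPM and 657 ± 72.7 against 616 ± 197 CPM. The median log2 change of the 10 genes was 0.05 at 60 h and -0.11 at 84 h. Luminal epithelial markers rose in the same libraries, 9 of 10 at 60 h and 5 of 10 at 84 h.

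The effects of the 2 treatments, each against its own controls, were compared in 1 fit of all 40 libraries. The times differ between them, so treatment and time cannot be told apart in these differences. Between CLA at 108 h and estrogen at 60 h, 8 of 10 genes differed, where 32.4% of all genes did. Plin2 was higher by 1.59 ± 0.25 and the rest lower, from Plin4 (-1.22 ± 0.19) and Plin1 (-0.80 ± 0.15) to Cidec (-0.48 ± 0.18, edgeR adjusted p = 0.0374) and Abhd5 (-0.33 ± 0.125, edgeR adjusted p = 0.0393). The calls of Cidec and Abhd5 were lost with limma on log2(RPKM + 0.1), at adjusted p of 0.203 and 0.169, and each was lost in 9 of 20 fits that left out 1 library. Over 28 alternatives their adjusted p ran from 0.0144 to 0.209 and from 0.00603 to 0.173. Plin5 and G0s2 did not differ beyond the threshold (edgeR adjusted p = 0.484 and 0.161). Between CLA at 132 h and estrogen at 84 h, 6 of 10 differed (40.4% of all genes): Plin2 by 1.62 ± 0.25, Plin4 by -1.25 ± 0.19, Lipe by -0.97 ± 0.165, Pnpla2 by -0.87 ± 0.14, Plin1 by -0.83 ± 0.15 and Mgll by -0.66 ± 0.13. Cidec, G0s2 and Abhd5 narrowly missed the threshold and were not called, with edgeR adjusted p of 0.0582, 0.0610 and 0.0755. DESeq2 called Cidec and G0s2 there, with adjusted p of 0.0385 and 0.0456, in ranges of 0.0118 to 0.303 and 0.0209 to 0.135 over 28 alternatives.

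Between the 2 times of CLA, none of the 10 effects differed after adjustment. Neither did any other gene in the main edgeR fit (0% called, 2216 of 17852 genes at an unadjusted p under 0.05). At an unadjusted p under 0.05, edgeR gave 3 of the 10: Plin4 with a CLA effect lower at 132 h by -0.49 ± 0.19, Lipe by -0.42 ± 0.165 and Pnpla2 by -0.38 ± 0.14 on the log2 scale (edgeR adjusted p = 0.276, 0.281 and 0.242). DESeq2 and limma called 0 of the 10. Over all genes the count depended on the tool: DESeq2 called 83 effects higher and 29 lower of 14451 genes tested. There edgeR with no filter called 2 higher, and so did limma at each pseudocount. Plin2's effect changed by -0.065 ± 0.25 and Plin1's by -0.26 ± 0.15. The estrogen effect at 84 h minus that at 60 h was called for none of the 10 by edgeR, DESeq2 or limma (0.0056% of all genes in edgeR). Plin4 had an unadjusted p under 0.05 in edgeR (-0.46 ± 0.19, edgeR adjusted p = 0.707), as did 1160 of 17852 genes.

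Across the 4 times of control gland, no gene of the 10 passed edgeR's test, where 13.4% of all genes did. Lipe, Plin2 and Pnpla2 had an unadjusted p under 0.05 in edgeR, with adjusted p of 0.0641, 0.0948 and 0.120. Of all genes, 5363 of 17852 had such an unadjusted p, so this count does not set the 10 apart. DESeq2 called Pnpla2 and Lipe, where it called 3049 of 17906 genes, and limma called none of the 10. Lipe controls had 321 ± 33.8 CPM at 60 h, 359 ± 22.2 at 84 h, 270 ± 24.5 at 108 h and 334 ± 53.1 at 132 h. Pnpla2 controls had 2996 ± 218 CPM at 60 h, 3194 ± 161 at 84 h, 2589 ± 224 at 108 h and 3029 ± 418 at 132 h. Control Plin2 had 550 ± 121, 616 ± 197, 419.5 ± 43.3 and 478 ± 110 CPM in the order of the times, and varied most of the 10 over the 20 controls relative to its mean (coefficient of variation 27.4%). Plin1 and Mgll varied least, at 9.63% and 9.87%.

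Within groups, the 10 genes did not all vary together. Over deviations of log2 CPM from the 8 group means in 40 libraries, which share library and scaling, Plin1 ran with Lipe (Pearson's r = 0.80), Pnpla2 (0.75), Mgll (0.74) and Plin4 (0.70), and less with Plin5 (0.36). Plin2 had r between -0.33 (Cidec) and 0.09 (Lipe) with the other 9, and 0.05 with Plin1. Pooled over groups, the r of Plin1 and Plin2 was -0.82. Among 10073 genes, those most like Plin1 over the 40 libraries were Mccc1 (r = 0.98), Ivd, Mccc2, Adhfe1 and Gys1, and by deviations within groups Bscl2 (r = 0.89), Acbd4, Mccc1, Adhfe1 and Akt2. Those most like Plin2 were Mfsd12 (r = 0.96), Sept9, Anxa7, Capzb and Ctsd, and by deviations within groups Atp6v1h (r = 0.84), Pfkp, Tmem184b, Prosc and Farsb. No gene was in both of Plin2's lists, whereas Mccc1 and Adhfe1 were in both of Plin1's.

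The neighbouring genes of fat storage and release were read from 6 lists of 86 genes in all. With CLA, 50 of the 83 genes tested were called at 108 h (60.2%, against 47.9% of all genes). At 132 h 64 were called (77.1%, against 56.0%). Of all genes tested, 23.0% were lower and 24.9% higher at 108 h, and 29.0% and 27.0% at 132 h. The counts of each list below stand beside these shares. Of 15 further droplet surface genes tested, with CLA 3 rose and 6 fell at the earlier time, 5 rose and 6 fell at the later (median 0.01 and -0.10 on the log2 scale). Hilpda, an inhibitor of Pnpla2, rose by 1.64 ± 0.17 and 1.71 ± 0.19, from 7.00 to 21.9 CPM at 108 h, and Aup1, a protein of the droplet and the endoplasmic reticulum, by 0.46 ± 0.04 at 108 h. Cidea, the relative of Cidec known from brown fat, fell by 0.88 ± 0.14 at 108 h, and at 132 h Cav1, which coats caveolae, fell by 0.82 ± 0.11 and Ldah, a droplet hydrolase, by 0.32 ± 0.06. The other lipases also went both ways: of 11 tested, 3 rose at each time, near the share of all genes, whereas 5 fell at 108 h and 7 at 132 h. Lipa, the acid lipase of lysosomes, rose by 1.88 ± 0.13 and 2.22 ± 0.145, Abhd12, a lysophospholipid lipase, by 0.97 ± 0.07 at 108 h and Daglb, a diglyceride lipase, by 1.91 ± 0.13 at 132 h. Ces1d, a carboxylesterase that splits triglyceride, fell by 1.14 ± 0.11 and 1.51 ± 0.14. The summed macrophage markers given above rose in the same libraries as Hilpda, Lipa and Daglb, and their part was not tested.

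Genes that set the rate of lipolysis mostly fell with CLA. Of 22 receptors and kinases 14 fell and 2 rose at 108 h, and 15 fell and 3 rose at 132 h (median -0.45 and -0.62). Adora1, the adenosine receptor that restrains lipolysis, fell by 1.01 ± 0.14 and 1.62 ± 0.14. Prkar2b, a regulatory subunit of protein kinase A, fell by 0.86 ± 0.11 and Hcar1, the lactate receptor, by 0.78 ± 0.11 at 108 h. Pde3b, which breaks down cAMP on insulin's signal, fell by 1.05 ± 0.12 and the insulin receptor gene Insr by 0.75 ± 0.08 at 132 h. With estrogen, 1 of the 22 rose at 60 h and 1 fell at 84 h: Npr3, the clearance receptor for natriuretic peptides, from 264.5 ± 52.0 to 506 ± 175 CPM (0.94 ± 0.27, edgeR adjusted p = 0.0483), and Adcy3, an adenylyl cyclase, by -0.45 ± 0.12 (edgeR adjusted p = 0.0318).

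Genes that build triglyceride fell and did not rise with CLA: 7 of 13 at 108 h and 12 of 13 at 132 h. Dgat2, which adds the last fatty acid, had 565 ± 211 CPM with CLA against 1679 ± 241 CPM at 108 h, and 613 ± 84.9 against 2130 ± 591 CPM at 132 h. Its change was -1.57 ± 0.265 and -1.81 ± 0.21 (edgeR adjusted p = 8.13e-05 and 6.92e-07). Mogat1, a monoacylglycerol acyltransferase, fell by 0.92 ± 0.15 and 1.40 ± 0.18, Gpam, which starts the pathway, by 0.59 ± 0.10 at 108 h and Gpat4 by 0.92 ± 0.15 at 132 h. Of 9 carriers of fatty acids and glycerol, 4 fell at 108 h and 5 fell and 1 rose at 132 h. Gpihbp1, which anchors lipoprotein lipase in capillaries, fell by 0.65 ± 0.08 and 1.04 ± 0.15, the glycerol channel Aqp7 by 0.54 ± 0.07 and 0.85 ± 0.15, and the fatty acid carrier Fabp3 by 1.01 ± 0.225 and 1.45 ± 0.35. Of 13 regulators of fat cell transcription, 6 and 7 fell and none rose. Klf15 fell by 1.37 ± 0.165 and 1.80 ± 0.18, Cebpa by 0.64 ± 0.10 and 0.98 ± 0.12, and Rxra, the partner of PPAR gamma, by 0.50 ± 0.10 and 0.76 ± 0.09.

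With estrogen, 8 of the 83 genes tested in these lists were called at 60 h (9.64%, against 6.49% of all genes) and 3 at 84 h (3.61%, against 5.42%). At 60 h Cidea fell by 0.68 ± 0.14 (edgeR adjusted p = 0.0116), and so did Spart, listed as Spg20, by 0.16 ± 0.05, Fabp3 by 0.76 ± 0.22 and the hydrolases Ddhd2 by 0.45 ± 0.10 and Abhd6 by 0.34 ± 0.09. The diglyceride lipase Dagla, named after its values were seen, fell by 0.31 (edgeR adjusted p = 0.0371). Cebpd, a factor of early fat cell differentiation, rose from 27.8 ± 1.48 to 45.9 ± 16.1 CPM (edgeR adjusted p = 0.0372). At 84 h the early fat cell factors Ebf2 and Ebf1 fell by 0.50 ± 0.07 and 0.365 ± 0.08 (edgeR adjusted p = 0.000367 and 0.0108).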

How the data were processed

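RNA-seq of 40 mammary gland libraries, 8 groups of 5, was read from tables of the whole series. Per the file headers and values, the authors deposited whole-number counts per gene and, in separate tables, RPKM values for the same libraries, 1 of each for the early times (60 h and 108 h) and for the late times (84 h and 132 h). The build is GRCm38 per the submitters' processing notes; for the aligner, counter and gene models, nothing is given in the sources read. Each library column was matched to a mouse by its label.

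Counts were tested with edgeR 4.0.16 (quasi-likelihood, robust) after filterByExpr (minimum count 10, minimum total 15) and TMM scaling, with the 4 groups of a table in 1 fit, or all 40 libraries for differences of effects. P-values were adjusted by Benjamini-Hochberg over all genes tested, with a threshold of 0.05. The smallest p of an exact permutation test of 5 against 5 is 0.0079. Nothing states that library numbers pair mice. The p-values set a difference between groups against the spread between mice within groups, which edgeR estimates over all groups of a fit. Alternatives were RLE and upper-quartile scaling, no filter and a stricter one (CPM of at least 1 in 5 libraries), limma 3.58.1 on log2(RPKM + 0.1) and log2(RPKM + 1), DESeq2 1.42.0, the 2 groups alone, a term for the runs of animal numbers, leaving out the 9 libraries above the largest gap in mean skin gene level, and leaving out each library. Levels relative to the fat cell markers were adjusted over 40 tests, and the same measure over all genes was added after seeing the data. The edgeR script was tested on simulated data. Depth was 18183713 to 40026800 counts a library, and G0s2 had the fewest counts of the 10 genes.

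The 10 genes and all lists were chosen with earlier results of these data known, and the lists are described by counts and medians, with no set test. Named beside the 10 genes are, per list, the 3 called genes of smallest p in each CLA comparison and the 2 in each estrogen comparison, Adipoq and Adgre1, and the 5 genes most like Plin1 and Plin2 by Pearson's r. The 11 marker lists cover fat cells, brown or beige fat cells, macrophages, luminal and basal epithelium, fibroblasts, endothelium, skin and hair, sebaceous gland, skeletal muscle and lymphocytes.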

Additional observations from a re-analysis of the deposited data

Results flagged for a closer look

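In each group of 5 libraries, a library was singled out when its gap to the nearest other exceeded 0.71 of the group's range (Dixon's 95% critical value); 10 of 88 groups checked met this, and chance gives about 1 in 20. Control library 4 at 132 h was highest for Plin4, with 3630 CPM beside 2130 to 2550 CPM in the other 4, and for Plin5, with 135 CPM beside 71.3 to 89.0 CPM. Control library 2 at 108 h, rich in skin genes, was lowest for Pnpla2, with 2200 CPM beside 2620 to 2760 CPM, and for Lipe, with 228 CPM beside 272 to 289 CPM. Control library 1 at 108 h, also rich in skin genes, was highest for G0s2, with 15.4 CPM beside 11.7 to 12.3 CPM. Control library 1 at 60 h was lowest for Plin5, with 83.0 CPM beside 107 to 115 CPM. Estrogen library 5 at 84 h, rich in skin genes, was highest for Pnpla2, with 3020 CPM beside 2420 to 2580 CPM. CLA library 5 at 108 h was highest for Mgll, with 1500 CPM beside 1180 to 1270 CPM. The log2 ratio of Plin1 to Plin2 was high in estrogen library 3 at 60 h, with 2.23 beside 1.75 to 1.86, and low in control library 3 at 84 h, with 1.36 beside 2.12 to 2.31.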

How the results depend on the processing

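The fall of 8 genes and the rise of Plin2 with CLA were counted again under 10 alternatives and 10 fits without 1 library at each time: 7 or 8 genes fell and 1 rose in each. No called gene changed sign; 61 estimates that passed in neither fit did, of size 0.266 or less. The number of all genes called with estrogen at 60 h was 593 with no filter, 547 and 453 with limma at the smaller and the larger pseudocount, 1886 with DESeq2, 742 with the 2 groups alone and 697 without the libraries rich in skin genes; at 84 h it was 1611 with DESeq2 and 303 without those libraries. Leaving out 1 library gave 316 to 1210 genes at 60 h (lowest without estrogen library 1) and 443 to 1152 at 84 h (lowest without control library 1). Of called genes, upper-quartile scaling put 76.2% and 75.5% higher with estrogen, against 62.7% and 63.6% in the main fit. In CLA minus estrogen it put 39.0% and 39.1% higher, against 54.1% and 51.4%. For CLA at 132 h minus estrogen at 84 h, its median log2 difference over all genes was -0.101, against -0.01 in the main fit.

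Without the libraries rich in skin genes, 1 gene (Plin4) rose with estrogen at 60 h, the Plin1 to Plin2 ratio differed by -2.493 and -2.705 with CLA (adjusted exact permutation p = 0.143 and 0.190), and 0 genes were higher relative to the fat cell markers at 108 h and 132 h, where the few controls left allow no call. With the median of the markers as reference 4 and 3 genes were higher, and with Adipoq alone 2 were higher with estrogen at 60 h (Plin4 and Mgll). The share of all genes was not counted for these 2 references. Leaving out 1 library, the ratio with estrogen at 84 h ran from -0.495 to -0.259, and 0 to 1 gene was higher and 0 to 1 lower than the markers with estrogen at 60 h. DESeq2 called 2 genes across control times. No paired analysis was possible because the labels give no replicate numbers and nothing ties a mouse of 1 group to a mouse of another.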
